A study of Mus musculus with 3186 samples.

Results

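Tek, Tie1, Angpt1, Angpt2, Ptprb, Apln and Aplnr, the 7 genes of the angiopoietin-Tie and apelin systems examined here, were followed through the vascular cells of the adult mouse brain. They were chosen by name, as 7 of the 19937 genes in the count matrices, and are described across endothelial zones, mural classes and fibroblasts, with the detection of Apln and Angpt2 in the same cell. Angiopoietins are secreted ligands of the endothelial receptor tyrosine kinase Tie2, which Tek encodes. Angpt1 is the agonist that keeps vessels quiescent, and Angpt2 acts as an agonist or an antagonist depending on context. Tie1 is a co-receptor of Tie2, and the phosphatase encoded by Ptprb (VE-PTP) removes phosphate from Tie2. Apelin, encoded by Apln, is a peptide ligand of the G protein-coupled receptor encoded by Aplnr, and Apln and Angpt2 are both known as genes of the endothelial tip cells that lead growing vessels.

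The study sorted single fluorescent brain cells of adult C57BL/6 mice, 12 to 15 weeks old, into 384-well plates and made SMART-seq2 libraries of full-length transcripts. No animal was treated, and the groups differ by transgenic reporter: 1445 cells came from Cldn5(BAC)eGFP mice, which mark endothelium, on plates EC3 to EC6. A further 257 came from Pdgfra-H2BGFP mice, which mark perivascular and oligodendrocyte-lineage cells, on plates Pdgfra1 and Pdgfra2, and 1484 cells positive for both reporters of Pdgfrb(BAC)eGFP/NG2dsRed mice, which mark mural cells, filled plates Mural3 to Mural6. The labels name no animals, so each line counts as 1 sample, no test between groups could be made, and plates serve only to show spread. Cells held 99905 to 1606954 reads with a median of 350339, and the medians were 345991 in the Cldn5(BAC)eGFP line, 533187 in the Pdgfra-H2BGFP line and 340344 in the Pdgfrb(BAC)eGFP/NG2dsRed line.

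Cell classes were rebuilt by clustering on genes other than these 7 and were named from marker genes. The Cldn5(BAC)eGFP line gave 390 arterial-like, 294 venous-like and 746 capillary-like endothelial cells. In each of these zones all 8 endothelial markers reached 20 CPM (reads of a gene per 1000000 reads of the class), with a summed level of 30462 CPM in arterial-like, 30736 CPM in venous-like and 30765 CPM in capillary-like cells. The Pdgfrb(BAC)eGFP/NG2dsRed line gave 170 smooth muscle-like and 1066 pericyte-like cells. A cluster of 101 cells led by Adamts16 and a cluster of 45 cells led by Colec11, 35 of them from the Pdgfrb(BAC)eGFP/NG2dsRed line and 10 from the Pdgfra-H2BGFP line, stayed unnamed. The Pdgfra-H2BGFP line gave 76 fibroblast-like and 156 oligodendrocyte-like cells, so that most of this line was not vascular. Pericyte-like cells carried 1565 CPM of the 8 endothelial markers in all, with 3 of them at 20 CPM and none at 0, and whether this came from shared wells was not tested. Reads are copies made by PCR without molecular identifiers, so the 95% intervals given here (exact Poisson for CPM, exact binomial for shares of cells) cover counting error only.

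**Figure D1:**
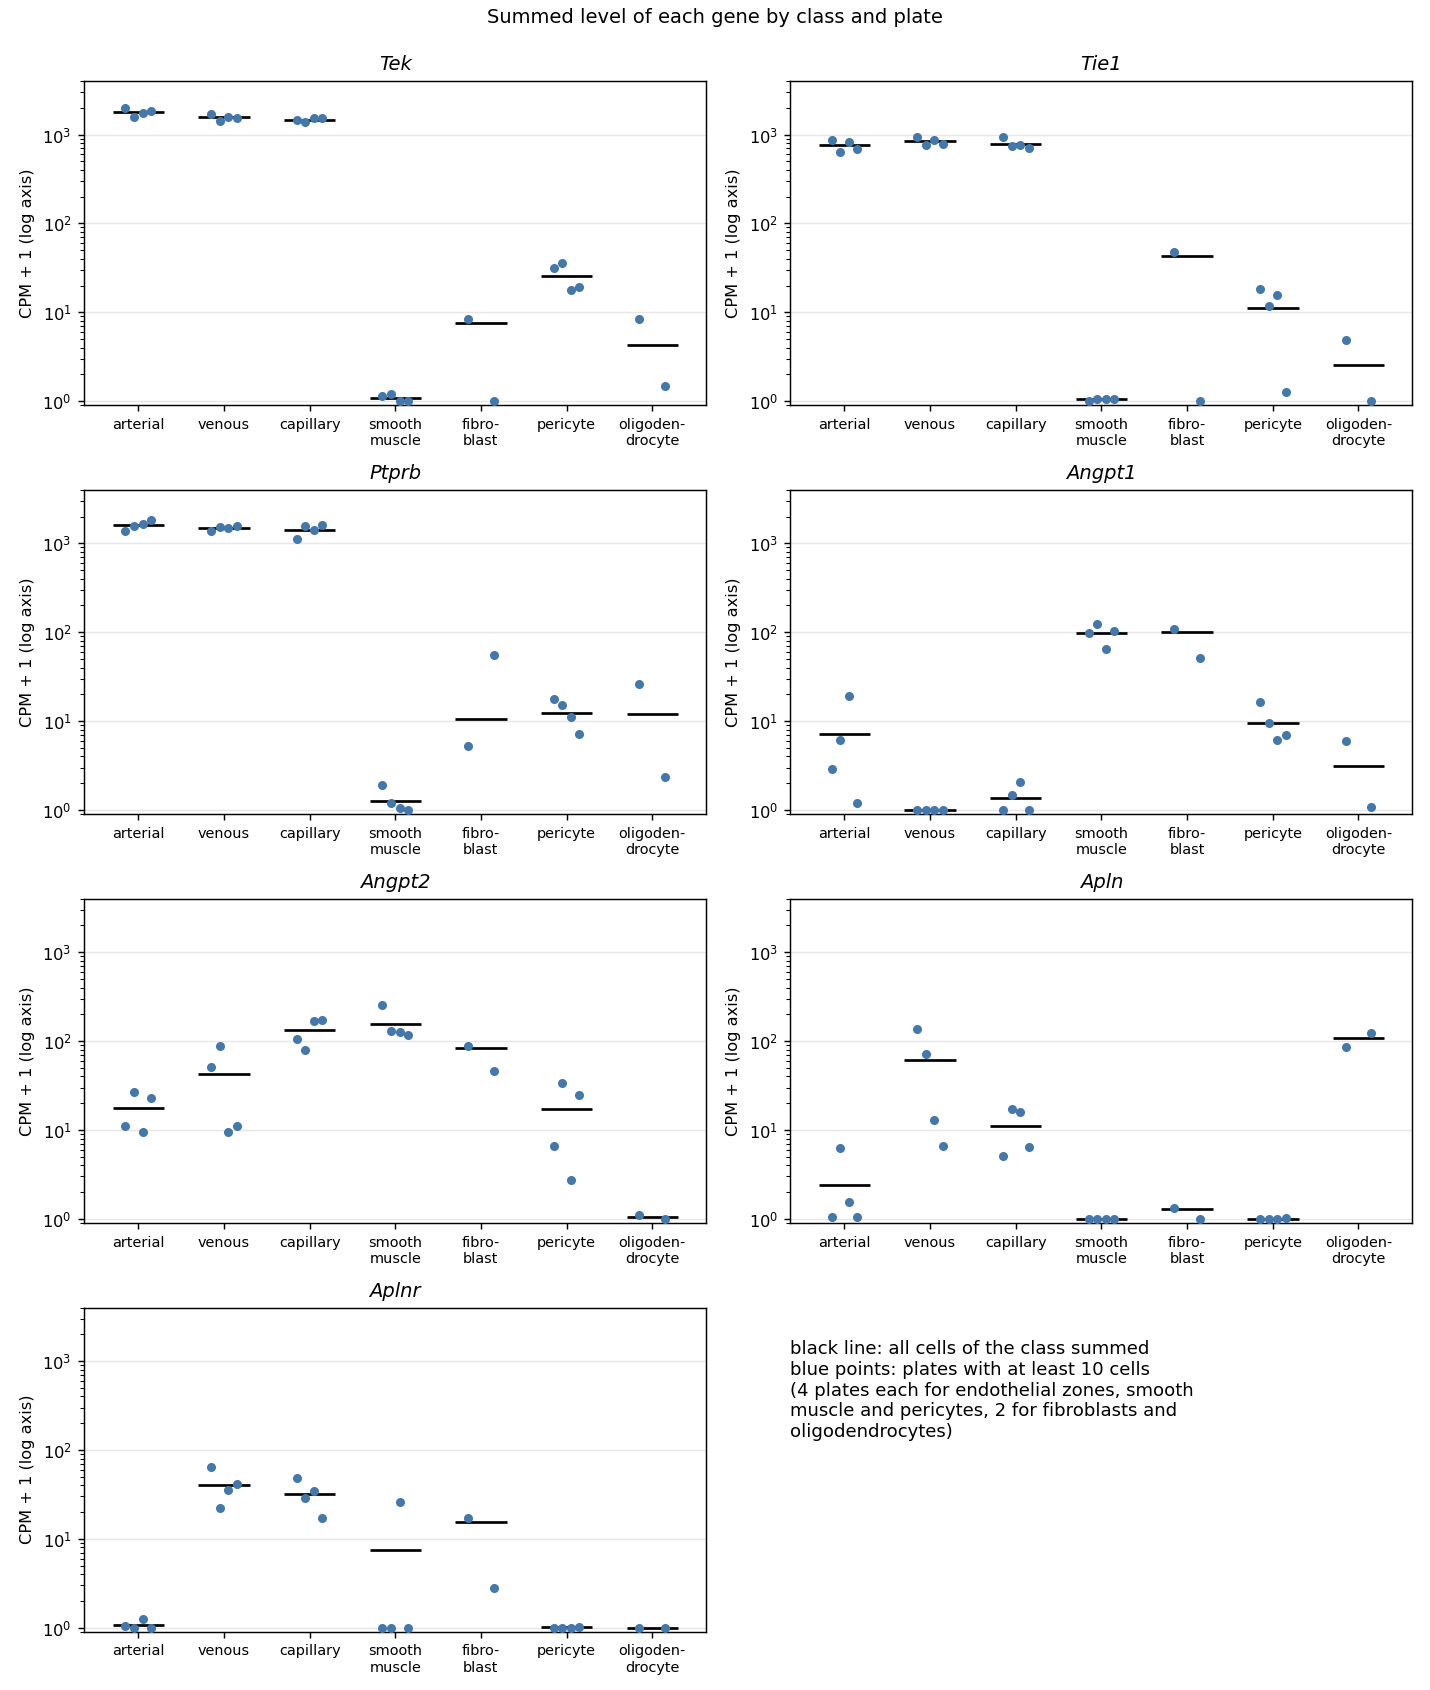
Summed level of each of the 7 genes, as CPM + 1 on a log axis, in 7 cell classes; black lines are all cells of a class and blue points are plates with at least 10 cells. Tek, Tie1 and Ptprb are high in the 3 endothelial zones, Angpt1 in smooth muscle-like and fibroblast-like cells, and Apln is highest in oligodendrocyte-like cells at 107.1 CPM.

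The receptors Tek and Tie1 and the phosphatase gene Ptprb were read in nearly every endothelial cell and at much the same level in every zone. Tek (ENSMUSG00000006386.15, chr4:94739289-94874976 on the plus strand of mm10, GENCODE M21) was detected in 99.0% of arterial-like, 99.7% of venous-like and 94.9% of capillary-like cells. Its level on plates EC3 to EC6 was 1972, 1560, 1767 and 1839 CPM in arterial-like cells, 1713, 1420, 1576 and 1552 CPM in venous-like cells, and 1439, 1380, 1536 and 1530 CPM in capillary-like cells. All 4 arterial-like values lay above all 4 capillary-like values, while the venous-like values overlapped with both. Summed over plates, Tek stood at 1791 CPM (95% interval 1784 to 1798) in arterial-like cells, 1565 CPM (1557 to 1572) in venous-like cells and 1473 CPM (1468 to 1478) in capillary-like cells. These are log2 ratios, with 1 CPM added to each side as for every ratio here, of 0.28 for arterial over capillary-like cells and 0.09 for venous over capillary-like cells.

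Tie1 (ENSMUSG00000033191.14, chr4:118471191-118490061, minus strand) lies on the same chromosome as Tek. Its plate values were 871.1, 638.7, 819.7 and 691.3 CPM in arterial-like cells, 932.1, 760.2, 859.1 and 776.5 CPM in venous-like cells, and 935.7, 746.8, 762.4 and 708.5 CPM in capillary-like cells. Zones overlapped, and the log2 ratio over capillary-like cells was -0.06 in arterial-like cells and 0.08 in venous-like cells. Ptprb (ENSMUSG00000020154.10, chr10:116275523-116389535, plus strand) had 1372, 1571, 1660 and 1813 CPM in arterial-like cells, 1363, 1537, 1480 and 1584 CPM in venous-like cells, and 1133, 1561, 1423 and 1624 CPM in capillary-like cells. All 3 zones overlapped, with log2 ratios of 0.17 and 0.05 over capillary-like cells for arterial-like and venous-like cells.

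Per kilobase of exon, which makes levels comparable between genes, Tek was the highest of the 3 in every zone, at 380.0 CPM per kb in arterial-like, 332.1 in venous-like and 312.7 in capillary-like cells. Tie1 had 153.7 CPM per kb in arterial-like, 169.8 in venous-like and 160.8 in capillary-like cells. Ptprb, whose exons span 13333 bases, had 120.5 CPM per kb in arterial-like, 111.4 in venous-like and 107.2 in capillary-like cells. The 3 genes were read together in 1318 of the 1445 Cldn5(BAC)eGFP cells, or 91.2%, against 2 of 1066 pericyte-like cells.

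Set against mural cells, taken as smooth muscle-like and pericyte-like cells together, 6 of the 7 genes passed 2-fold upward in endothelial-like cells and 1, Angpt1, downward. Among the 11106 genes counted (at least 5 CPM on one side), 14.9% passed 2-fold upward and 20.1% downward. Over all 1441 endothelial-like cells, Tek had 1583 CPM against 20.81 CPM in the 1236 mural cells, a log2 ratio of 6.18. Tie1 had 789.9 CPM in endothelial-like cells against 8.753 CPM in mural cells (log2 ratio 6.34). Ptprb had 1500 CPM in endothelial-like cells against 9.749 CPM in mural cells (log2 ratio 7.13). Apln and Aplnr were also higher, at 18.05 and 23.72 CPM in endothelial-like cells against 0.002412 and 0.9816 CPM in mural cells. Angpt2, by contrast, was only just past 2-fold, with 78.45 CPM in endothelial-like cells against 37.06 CPM in mural cells (log2 ratio 1.06). That ratio lay between 0.85 and 1.20 under other processing, and so did not always reach 2-fold. Endothelial and mural cells came almost wholly from different reporter lines and plates, and line and cell class cannot be told apart in this comparison.

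The traces of receptor RNA in mural cells were uneven. In pericyte-like cells, Tek on plates Mural3 to Mural6 stood at 30.71, 34.66, 16.61 and 18.17 CPM, Tie1 at 17.05, 10.8, 14.69 and 0.2686 CPM, and Ptprb at 16.72, 14.02, 10.1 and 6.219 CPM. Tek was read in 8.35% of pericyte-like cells, and 7 of the 89 cells with a Tek read also had one of Tie1. Leaving out 215 pericyte-like wells (20.2%) that carried at least 10% of another class's marker level left Tek at 25.72 CPM, against 24.51 CPM in all pericyte-like cells, and Tie1 at 9.022 CPM, against 10.31 CPM. Ptprb was 6.09 CPM without these wells, 11.44 CPM in all pericyte-like cells and 32.8 CPM in the wells left out. Smooth muscle-like cells held 5 reads of Tek, 3 of Tie1 and 17 of Ptprb in all 170 cells, or 0.07958, 0.04775 and 0.2706 CPM.

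The RefSeq promoter table (GRCm38.p6) held 3 of the 7 genes. Those of Tek and Apln are shown: Tek is even across zones, and Apln, described further on, is patchy. The Tie1 window is not shown, because an annotated exon covers 212 of its 250 bases. Each line gives the 250 bases before the gene's annotated start, 5′ to 3′ on the gene's strand, with capitals marking GGAA on either strand (read as TTCC), the core of the motif of ETS transcription factors. Tek is at chr4:94739039-94739288 on the plus strand, and Apln at chrX:48034854-48035103 on the minus strand.
Tek: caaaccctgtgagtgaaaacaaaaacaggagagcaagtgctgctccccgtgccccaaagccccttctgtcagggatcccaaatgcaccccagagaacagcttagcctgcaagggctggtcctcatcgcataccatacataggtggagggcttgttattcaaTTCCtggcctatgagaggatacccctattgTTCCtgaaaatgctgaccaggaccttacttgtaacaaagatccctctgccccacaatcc
Apln: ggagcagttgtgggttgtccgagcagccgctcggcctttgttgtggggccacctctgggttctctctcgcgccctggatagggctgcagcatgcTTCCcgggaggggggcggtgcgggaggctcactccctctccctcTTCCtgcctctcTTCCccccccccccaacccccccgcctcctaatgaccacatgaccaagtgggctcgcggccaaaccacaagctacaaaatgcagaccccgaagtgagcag
Tek held 2 matches, both on the opposite strand, and Apln held 3, also on the opposite strand. Tie1 held 7 by the same count, 2 on its own strand and 5 on the other, in a window that is mostly annotated exon. GGAA on either strand was present in 93.4% of 32851 promoters of the same length, so the match sets none of these genes apart. The longer GGAAG, which overlaps GGAA, was found in 64.1% of promoters, 3 times in Apln and 6 times in Tie1 but not in Tek. Neither the forkhead letters GTAAACA (3.17% of promoters) nor the hypoxia response letters ACGTG (16.6%) occurred on either strand in the windows of the 3 genes.

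The ligands had a different distribution. Angpt1 (ENSMUSG00000022309.9, chr15:42424723-42676977, minus strand), the Tie2 agonist, was a gene of smooth muscle-like and fibroblast-like cells. On plates Mural3 to Mural6 it had 98.32, 122.9, 64.1 and 103.3 CPM in smooth muscle-like cells, against 15.49, 8.581, 5.137 and 5.972 CPM in pericyte-like cells. All 4 smooth muscle values were above all 4 pericyte values. Summed, this was 96.8 CPM in smooth muscle-like cells against 8.488 CPM in pericyte-like cells, a log2 ratio of 3.37 that ranged from 2.59 to 3.90 within plates. Detection was 35.3% of smooth muscle-like cells (28.1 to 43.0%), against 4.03% of pericyte-like cells (2.93 to 5.40%), at median depths of 375488 and 332462 reads. Its level in pericyte-like cells rested on few wells, as 5 cells held 56.2% of the 2986 reads.

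In fibroblast-like cells Angpt1 stood at 106.7 CPM on plate Pdgfra1 and 49.9 CPM on plate Pdgfra2, with reads in 23 of 51 cells and 8 of 25 cells. The sum of 100.6 CPM, against 8.488 CPM in pericyte-like cells, gave a log2 ratio of 3.42 across lines. Per kilobase of exon, Angpt1 had 18.6 CPM per kb in smooth muscle-like cells and 19.33 CPM per kb in fibroblast-like cells, which differ by less than the plates do. Endothelium had little: 6.107 CPM in arterial-like cells, no read in 294 venous-like cells and 0.3717 CPM in capillary-like cells. A single cell carried 51.9% of the arterial-like reads, and without plate EC5 the arterial-like level was under the 5 CPM needed for a gene to be counted. The log2 ratio of arterial over capillary-like cells was 2.37, and 1.53 without that plate. Exons of Angpt1 overlap those of the opposite-strand gene Gm17473 over 737 bases, and whether strand was used in counting is not given in the sources used here.

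Angpt2 (ENSMUSG00000031465.6, chr8:18690263-18741562, minus strand), the context-dependent Tie2 ligand, was found both in smooth muscle-like cells and in a minority of capillary-like cells. In smooth muscle-like cells its plate values were 256.9, 129.9, 125.8 and 116.7 CPM, against 5.547, 33.12, 1.766 and 23.83 CPM in pericyte-like cells. The groups did not overlap, and plate Mural3 was the high one among smooth muscle-like values. The summed levels were 153.7 CPM in smooth muscle-like cells and 16.24 CPM in pericyte-like cells, a log2 ratio of 3.17 (1.94 to 5.52 within plates), with reads in 37.1% of smooth muscle-like cells and 5.16% of pericyte-like cells. For comparison, 1.28% of the 156 oligodendrocyte-like cells had a read of Angpt2, at a median depth of 510570 reads, with 4 reads in all. These cells came from plates Pdgfra1 and Pdgfra2 of another line, so they do not measure background on the Mural plates.

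Of all 7 genes, 3 were at least 2-fold higher and 3 at least 2-fold lower in smooth muscle-like than in pericyte-like cells, where 12.9% of 10819 genes were higher and 18.1% lower. The 3 higher were Angpt1, Angpt2 and Aplnr, and the 3 lower were the endothelial genes Tek, Tie1 and Ptprb, with log2 ratios of -4.56, -3.43 and -3.29. The call of Aplnr rested on 1 cell that held 404 of its 405 smooth muscle-like reads. On plate Mural6, Tie1 stood at 0.05754 CPM in smooth muscle-like and 0.2686 CPM in pericyte-like cells, a log2 ratio of -0.26. Immediate early genes, which respond within minutes to handling or stimulation, stood apart in the same comparison: all 12 of 12 counted were at least 2-fold higher in smooth muscle-like cells, with a median log2 ratio of 4.07 against -0.14 over all genes. Their part in the ligand values was not tested.

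Smooth muscle-like cells split at a finer resolution into 90 cells led by Cnn1 and Eln and 80 cells led by Olfr558 and Olfr78. Angpt1 stood at 92.21 CPM in the Cnn1-led and 102.3 CPM in the Olfr558-led cells, and Angpt2 at 135.8 CPM in the Cnn1-led and 174.9 CPM in the Olfr558-led cells. Both ligands were thus present in both divisions, with Angpt1 detected in 40.0% of Cnn1-led and 30.0% of Olfr558-led cells. Within single smooth muscle-like cells, 25 had reads of both ligands, 35 of Angpt1 alone, 38 of Angpt2 alone and 72 of neither. Angpt2 was read in 41.7% of cells with Angpt1 (29.1 to 55.1%), against 34.5% of cells without it (25.7 to 44.2%), and these intervals overlapped.

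The highest Angpt2 level of any class lay in the unnamed cluster led by Colec11, which expressed the pericyte-associated channel gene Kcnj8 at 2714 CPM. It had 441.3 CPM of Angpt2 (431.8 to 450.9) with reads in 46.7% of 45 cells (31.7 to 62.1%), and 129.1 CPM of Angpt1 with reads in 33.3% of cells (20.0 to 49.0%). Only plate Mural3 held at least 10 of these cells, 12 in all, with 948.1 CPM of Angpt2 and 311.3 CPM of Angpt1, so the plate spread cannot be given. Markers of several classes were present in the Colec11-led cells. Of the 45, 44 reached 10% of the pericyte marker level, 15 of the smooth muscle, 13 of the fibroblast and 6 of the endothelial one. The rule for possible mixed wells flagged 44 of them. As the cluster has no name, its pericyte markers counted as those of another class, so this flag cannot show mixing. Without the 18 wells past the 10% limit for a class other than pericytes and smooth muscle, a choice made after seeing the data, Angpt2 stood at 547.8 CPM and Angpt1 at 208.6 CPM. The part of mixed wells in these levels was otherwise not tested. The unnamed mural cluster led by Adamts16, with 4548 CPM of the contractile gene Acta2, had 109.5 CPM of Angpt2 and 34.23 CPM of Angpt1. On plates Mural3 to Mural6 its Angpt2 was 129.7, 88.58, 132.3 and 91.61 CPM, and its Angpt1 was 1.072, 10.7, 88.23 and 15.28 CPM. Angpt2 was hence steady across these plates, while Angpt1 rested on plate Mural5. In the Adamts16-led cluster 5 cells held 60.9% of the Angpt2 reads and 72.6% of the Angpt1 reads. In the Colec11-led cluster 5 cells held 39.3% of the Angpt2 reads and 84.8% of the Angpt1 reads.

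**Figure D2:**
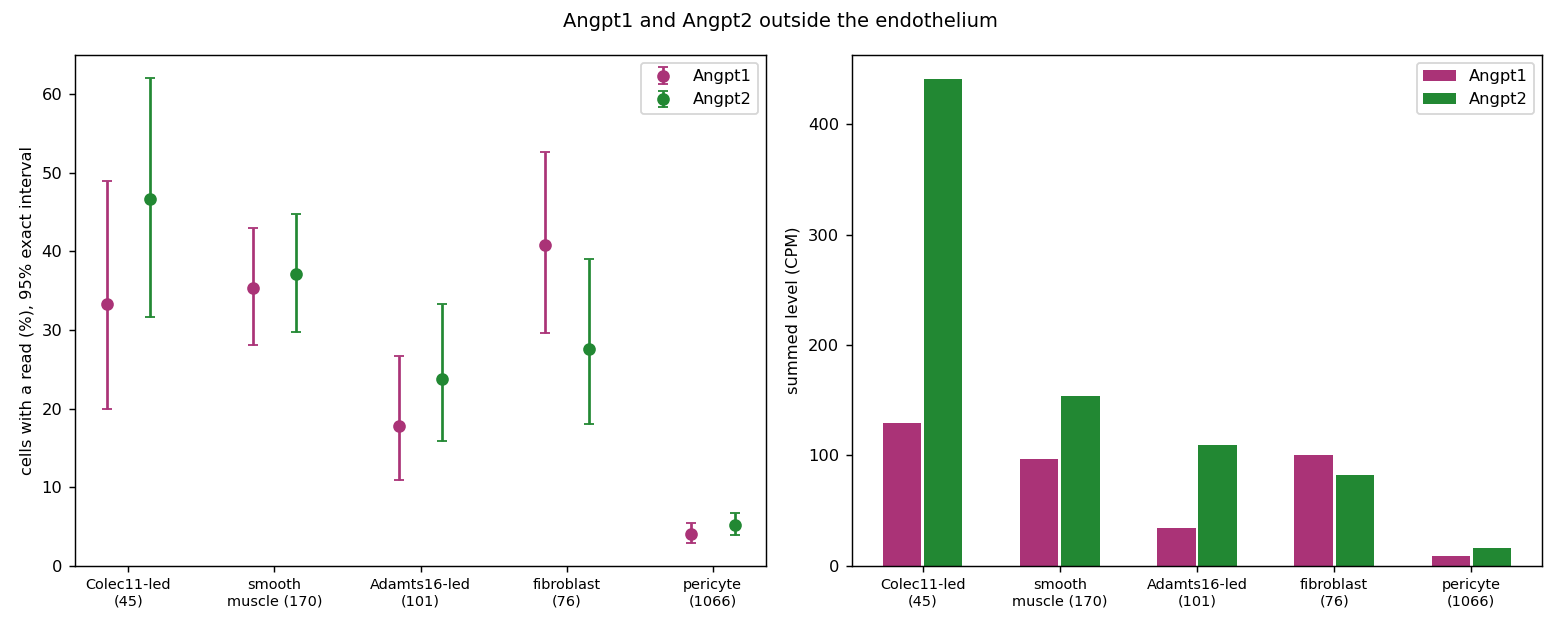
Angpt1 and Angpt2 in mural and fibroblast-like classes, with cell numbers in brackets: left, the percentage of cells with a read and its 95% exact binomial interval; right, the summed level in CPM. The cluster led by Colec11 has the highest Angpt2, 441.3 CPM, and pericyte-like cells are lowest for both genes at 8.488 CPM of Angpt1 and 16.24 CPM of Angpt2.

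Within the endothelium Angpt2 was highest in the capillary-like zone. Plates EC3 to EC6 had 10.11, 25.55, 8.479 and 21.68 CPM in arterial-like cells, 50.43, 86.67, 8.363 and 10.12 CPM in venous-like cells, and 103.4, 77.89, 165.2 and 173.5 CPM in capillary-like cells. Arterial-like values were below capillary-like values on every plate, whereas plate EC4 had more in venous-like than in capillary-like cells. The log2 ratio over capillary-like cells was -2.92 in arterial-like cells (-4.13 to -1.57 within plates) and -1.63 in venous-like cells (-4.15 to 0.15). Leaving out plate EC4 took the venous value to -2.54, and the finer and coarser clusterings took it to -4.21 and -4.65.

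Most capillary-like cells had no Angpt2 read at all: it was detected in 9.49% of arterial-like, 9.86% of venous-like and 15.1% of capillary-like cells. The largest capillary-like cluster, 407 cells led by Ivns1abp, had 181.3 CPM with reads in 21.6% of cells (17.7 to 25.9%). The second, of 252 cells, had 41.04 CPM and 7.54% of cells, and the third, of 93 cells with a median depth of 223450 reads, had 93.96 CPM and 7.53%. In cells that had any, the reads were often many, with a median of 56 over the 181 cells of the line and a highest count of 1883, although 47 cells had a single read. Per kilobase of exon, capillary-like cells had 35.52 CPM per kb and smooth muscle-like cells 41.64 CPM per kb of Angpt2, above the 0.07142 CPM per kb of Angpt1 in capillary-like cells and 18.6 CPM per kb in smooth muscle-like cells.

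Of the 7 genes, 1 was at least 2-fold higher (Angpt1) and 3 at least 2-fold lower (Angpt2, Apln and Aplnr) in arterial-like than in capillary-like cells, where 5.23% of 10099 genes were higher and 3.49% lower. Immediate early genes were higher there too, 8 of 12 by at least 2-fold with a median log2 ratio of 1.15, and their part was not tested. In venous-like cells 1 was higher (Apln) and 1 lower (Angpt2), where 3.7% of 10045 genes were higher and 3.21% lower.

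Apln (ENSMUSG00000037010.7, chrX:48025146-48034853, minus strand), the apelin ligand gene whose promoter is printed above, was read in a small share of endothelial cells. It was found in 26 of 294 venous-like cells (8.84%, 5.86 to 12.7%) and in 7 of 390 arterial-like cells (1.79%), against 26 of 746 capillary-like cells (3.49%, 2.29 to 5.07%). Plates EC3 to EC6 had 0.05522, 5.293, 0.5633 and 0.05242 CPM in arterial-like cells, 135.2, 69.99, 11.92 and 5.52 CPM in venous-like cells, and 4.061, 16.42, 15.07 and 5.493 CPM in capillary-like cells. Venous-like values exceeded capillary-like ones widely on plates EC3 and EC4 but not on EC5 and EC6.

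The summed venous-like level of 59.68 CPM, against 9.983 CPM in capillary-like cells, gave a log2 ratio of 2.47 (-0.31 to 4.75 within plates). It rested on few cells, as 1 venous-like cell carried 29.5% and 5 cells 76.9% of the 6244 reads, and its sign turned with the clustering, to -0.51 at a coarser and -0.08 at a finer resolution. Detection by plate was 11 of 72, 9 of 82, 4 of 77 and 2 of 63 venous-like cells, against 6 of 194, 6 of 175, 9 of 187 and 5 of 190 capillary-like cells. Pericyte-like cells, at a similar median depth of 332462 reads, had 1 Apln read in 1066 cells, and 170 smooth muscle-like cells had none, for which the exact interval reaches 0.0587 CPM and the limit of 3 reads is 0.0477 CPM.

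The highest Apln of any class was outside the vessel wall. Among the 156 oligodendrocyte-like cells, 70 had a read (44.9%, 36.9 to 53.0%), with 14 of 39 cells and 85.3 CPM on plate Pdgfra1 and 56 of 117 cells and 122.0 CPM on plate Pdgfra2. The 2 plates thus gave like values, and their sum was 107.1 CPM (105.0 to 109.2). The reads were spread over cells, with a median of 116 in the 70 cells and 22.4% of all reads in the highest 5. These cells expressed all 8 oligodendrocyte markers, summing to 103102 CPM, and at a median depth of 510570 reads were deeper than the endothelial cells. Per kilobase of exon, Apln had 34.01 CPM per kb in oligodendrocyte-like cells, 18.95 CPM per kb in venous-like cells and 3.17 CPM per kb in capillary-like cells. Oligodendrocyte marker levels summed to 7.121 CPM in venous-like and 15.87 CPM in capillary-like cells.

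Aplnr (ENSMUSG00000044338.9, chr2:85136225-85139923, plus strand), the apelin receptor gene, was nearly missing from arterial-like cells. It had 0.05522, 0, 0.2372 and 0 CPM there on plates EC3 to EC6, 62.68, 21.37, 34.86 and 39.9 CPM in venous-like cells, and 46.96, 27.72, 33.35 and 15.95 CPM in capillary-like cells. Every arterial-like value lay below every other, and the venous-like and capillary-like values overlapped. Summed levels were 0.07093 CPM in arterial-like cells, 39.54 CPM in venous-like cells and 31.15 CPM in capillary-like cells. The log2 ratios over capillary-like cells were -4.91 (-5.51 to -4.08 within plates) for arterial-like and 0.33 (-0.36 to 1.27) for venous-like cells. It was detected in 11.2% of venous-like and 4.83% of capillary-like cells, while 2 of 1066 pericyte-like cells had a read.

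The 6.446 CPM of Aplnr in smooth muscle-like cells came from 2 cells, 1 of them on plate Mural5 with 404 of the 405 reads, and without that plate the log2 ratio over pericyte-like cells was -0.01. Ligand and receptor of the apelin pair were seldom read in 1 cell. Of the 61 Cldn5(BAC)eGFP cells with Apln, 4 had Aplnr (6.56%, 1.82 to 15.9%), against 5.20% of cells without Apln.

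Ordering the endothelial-like cells of the Cldn5(BAC)eGFP line from arterial to venous by their zone markers, in 10 bins of 143 or 144 cells, gave the same view without cluster borders. Tek stayed between 1362 and 1869 CPM, Tie1 between 718.6 and 905.6 CPM and Ptprb between 1295 and 1899 CPM. Angpt2 was 0.2436 CPM in the first bin, then 59.88, 122.7, 129.6, 125.4, 94.86, 120.0, 78.38 and 48.61 CPM, and 14.61 CPM in the last, so that both ends were low. Aplnr was at most 0.1311 CPM in the first 3 bins and between 17.59 and 70.11 CPM in the other 7, with the highest value in the last.

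Apln had no such smooth course in CPM, where the sixth bin, at 57.81 CPM, exceeded its neighbours. The share of cells with an Apln read was 1.39, 1.39, 3.47, 2.80, 1.40, 2.80, 4.20, 6.29, 8.39 and 9.09% from the first bin to the last. The arteriovenous order was built from zone marker genes that excluded these 7 genes.

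**Figure D3:**
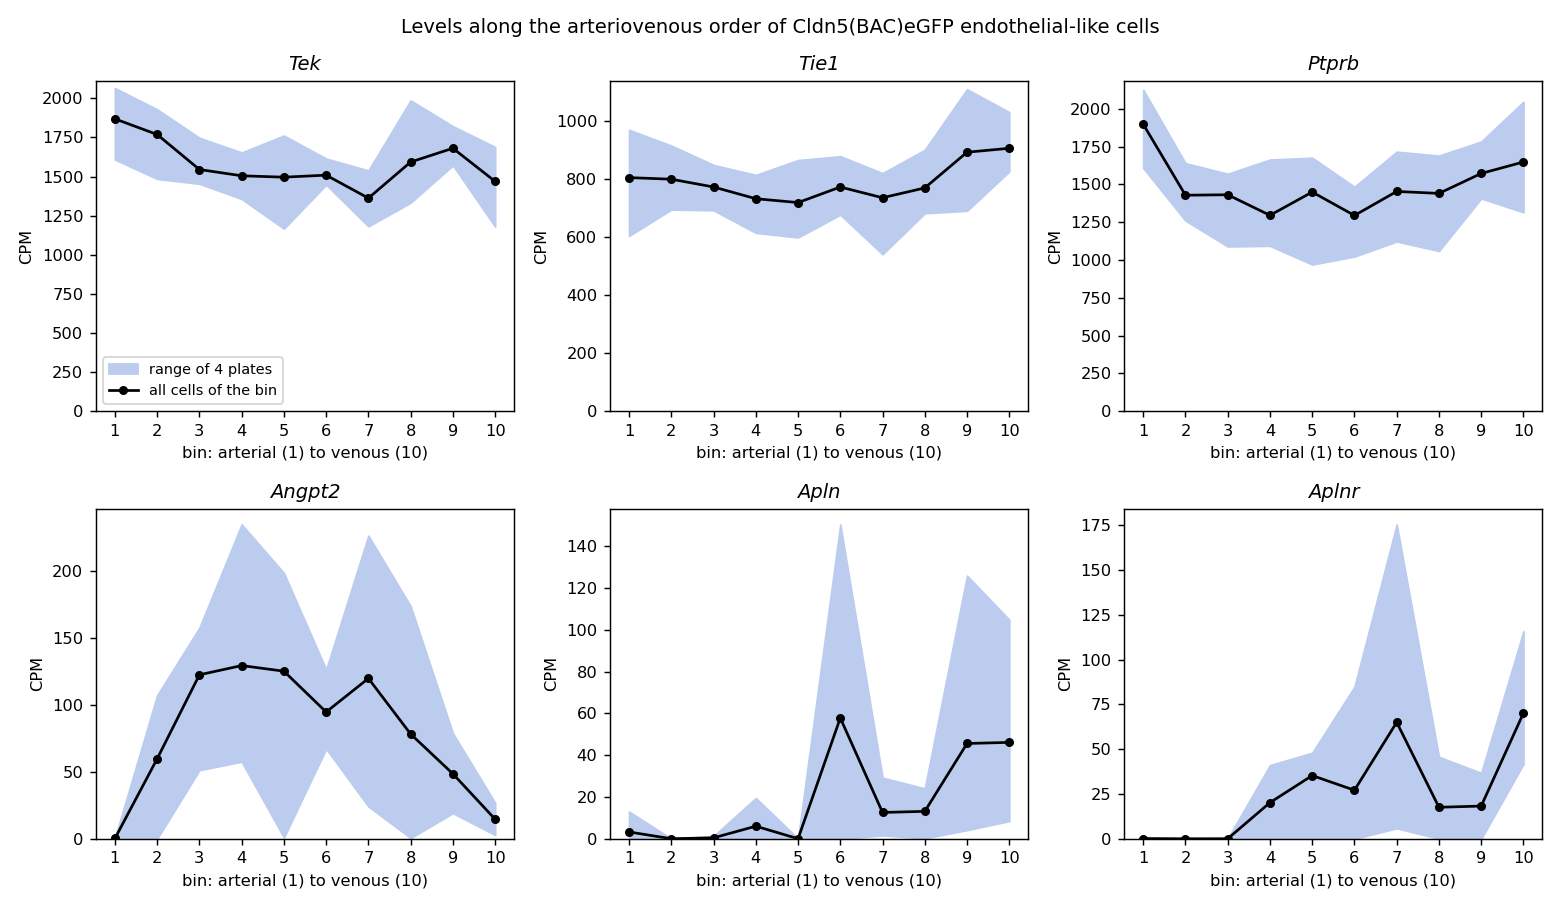
Level in CPM of 6 genes in 10 bins of Cldn5(BAC)eGFP endothelial-like cells ordered from arterial (1) to venous (10); black points are all cells of a bin and the band is the range over 4 plates. Angpt2 is low at both ends, at 0.2436 and 14.61 CPM, and Aplnr is at or near 0 in the first 3 bins.

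Apln and Angpt2 were next counted in the same cells. In the Cldn5(BAC)eGFP line, 61 of 1445 cells had a read of Apln (4.22%, 3.24 to 5.39%) and 181 had one of Angpt2 (12.5%, 10.9 to 14.3%). Both were read in 18 cells, Apln alone in 43, Angpt2 alone in 163 and neither in 1221. Angpt2 was thus found in 29.5% of cells with Apln (18.5 to 42.6%), against 11.8% of cells without it (10.1 to 13.6%). These intervals did not overlap, but they cover counting error over cells only. They are no test of a difference between animals, which the labels do not name. The difference was in the same direction on all 4 plates, with 31.6, 17.6, 40.0 and 30.0% of cells with Apln against 9.06, 14.3, 12.1 and 11.6% of cells without it on EC3 to EC6. Plate EC4, with 3 of 17 cells, showed the least difference, and the exact intervals of single plates were wide.

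The same direction held inside each zone. Among arterial-like cells Angpt2 was read in 28.6% of those with Apln and 9.14% of those without it, among venous-like cells in 26.9% with and 8.21% without, and among capillary-like cells in 30.8% with and 14.6% without. Within each zone the intervals overlapped, as cells with both numbered 2, 7 and 8. A further cell with both, on plate EC5, was named microglia-like and lies in no zone. Depth moves detection, and was looked at in tertiles of the reads per cell. The share with Angpt2 was 27.8% of cells with Apln against 9.91% of cells without it in the lowest tertile, 20.0% with against 11.7% without in the middle one and 39.1% with against 13.7% without in the highest. After every cell was thinned to 100000 reads, 26.0% of cells with Apln had Angpt2, against 9.25% of cells without it.

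Most Apln cells therefore had no Angpt2 read, and most Angpt2 cells no Apln. In the 18 cells with both, the median was 66 reads of Apln and 106 of Angpt2. Counting a gene as present only from 5 reads left 11 cells with both, or 26.8% of 41 cells with Apln against 7.76% of cells without it. In oligodendrocyte-like cells, where Apln was common, only 1 of the 70 Apln cells had Angpt2, against 1 of the 86 without Apln. Angpt2 and Aplnr showed no such difference, as 5.52% of cells with Angpt2 had Aplnr against 5.22% of cells without it.

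**Figure D4:**
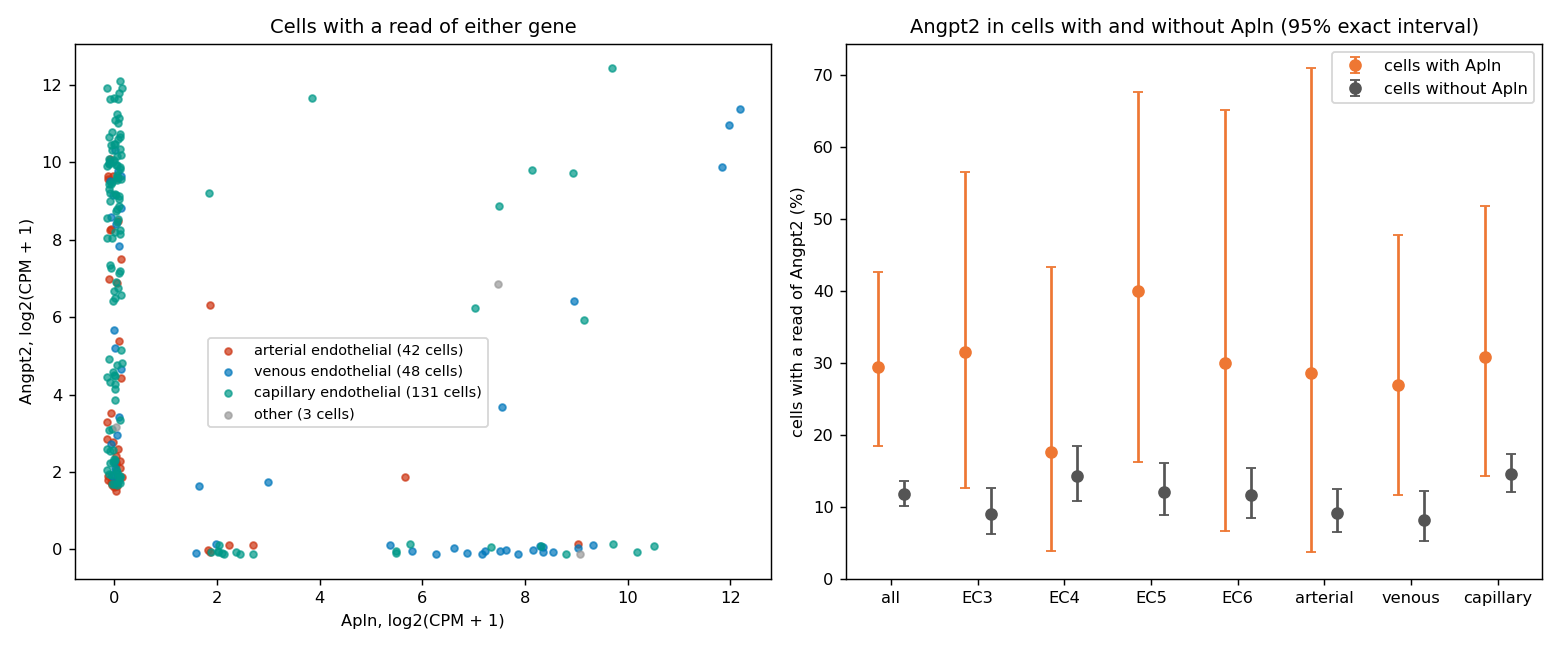
Left, Apln against Angpt2 as log2(CPM + 1) in the 224 Cldn5(BAC)eGFP cells with a read of either, 1 point per cell with a small jitter at 0; right, percentage of cells with Angpt2 among cells with Apln (orange) and without it (grey), with 95% exact binomial intervals, over all cells, by plate and by zone. The orange point is the higher in every pair, from 17.6% on plate EC4 to 40.0% on plate EC5.

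Fibroblast-like cells carried an unusual receptor. Against pericyte-like cells, 4 of the 7 genes (Angpt1, Angpt2, Tie1 and Aplnr) were at least 2-fold higher in fibroblast-like cells and 1 (Tek) at least 2-fold lower, where 20.1% of 11529 genes were higher and 16.2% lower. Angpt2 had 87.1 CPM on plate Pdgfra1 and 45.33 CPM on plate Pdgfra2, summing to 82.64 CPM against 16.24 CPM in pericyte-like cells (log2 ratio 2.28), though 1 cell held 31.5% and 5 cells 79.4% of its reads. The 14.49 CPM of Aplnr came from 5 cells, with 52.0% of the reads in 1. As in smooth muscle-like cells, immediate early genes were higher too, 10 of 12 by at least 2-fold with a median log2 ratio of 3.36, and their part was not tested.

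Tie1 was read in 21 of 51 fibroblast-like cells on plate Pdgfra1 (46.76 CPM) and in none of 25 on plate Pdgfra2. The 21 cells held 2 to 481 reads of Tie1 with a median of 37, and 18 of them had at least 10. Tek was read in 1 of these cells, Ptprb in 1, Pecam1 in 0 and Cldn5 in 1, with a single read, whereas the endothelial cadherin gene Cdh5 was read in 14. Tie1 had 41.76 CPM in fibroblast-like cells against 10.31 CPM in pericyte-like cells (log2 ratio 1.92), but the ratio was -3.50 without plate Pdgfra1.

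A finer clustering, again without the 7 genes, set 30 fibroblast-like cells with Dpep1, Hpca, Wnt2 and Moxd1 among their leading genes apart from the other 46. In that clustering the 30 cells took no class name, as 50.0% of the fibroblast markers were high, where over 50% was needed. Tie1 was read in 20 of the 30 (66.7%, 75.04 CPM), against 1 of the 46 others (2.17%, 0.4382 CPM). Cdh5 was read in 53.3% of the 30 and 52.2% of the others. Of the 30 cells, 28 were from plate Pdgfra1 and 2 from plate Pdgfra2, while the others divided into 23 and 23, and the median depth was 1010300 reads in the 30 and 360658 in the others. Angpt1 was also higher in the 30 cells, at 139.7 CPM and 63.3% of cells, against 52.15 CPM and 26.1% in the others. Within plate Pdgfra1 alone, Tie1 stood at 77.41 CPM in the 28 cells, of which 20 had a read, against 0.549 CPM in the 23 others, of which 1 had, at median depths of 1031531 and 751244 reads. The 2 cells of this kind on plate Pdgfra2 had no read of Tie1.

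**Figure D5:**
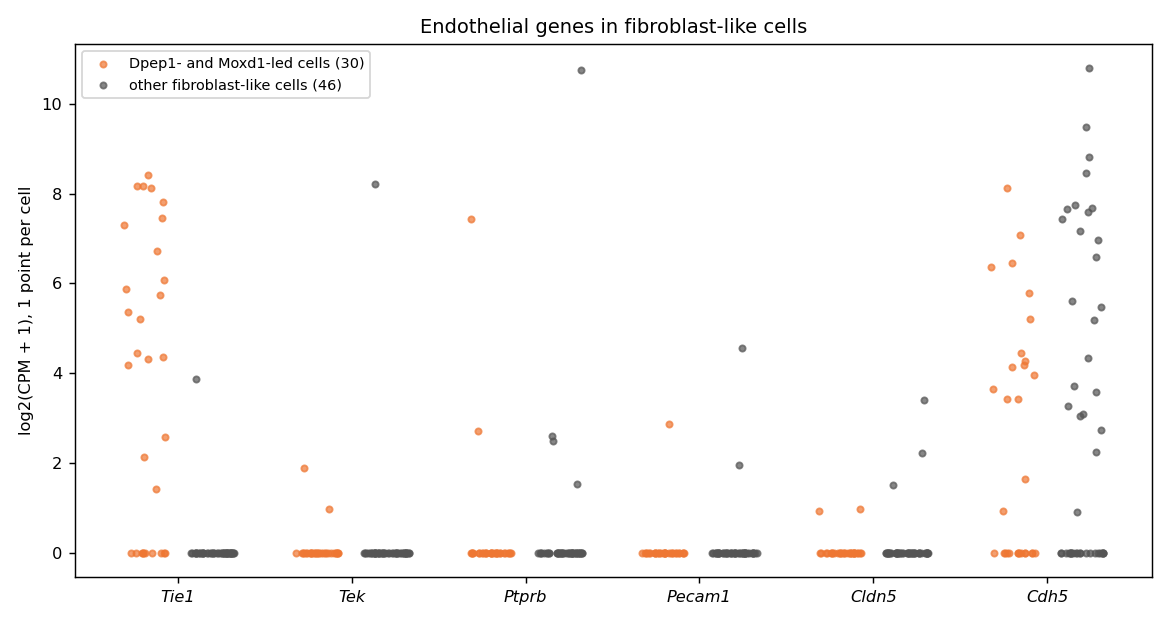
Level of 6 endothelial genes, as log2(CPM + 1) with 1 point per cell, in 30 fibroblast-like cells led by Dpep1 and Moxd1 (orange) and in the other 46 (grey). Tie1 is read in 20 of the 30 and in 1 of the 46, while Tek, Ptprb, Pecam1 and Cldn5 are at 0 in nearly all cells and Cdh5 is spread over both.

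The other genes of the 2 systems gave a context for the members. Of 30 further genes of the angiopoietin-Tie system (adaptors, kinases, integrins, proteases and transcription factors), 25 were counted between endothelial-like and mural cells, 8 of them at least 2-fold higher and 6 lower. Of all genes counted there, 14.9% were higher and 20.1% lower. The median log2 ratio of the 25 was 0.24, against -0.12 over all genes. Cdh5, the endothelial cadherin that binds VE-PTP, had 467.0 CPM in endothelial-like cells against 3.336 CPM in mural cells, and Grb7, an adaptor that binds activated Tie2, reached 40.42 CPM in endothelial-like cells against 0.1278 CPM in mural ones. Mmp14, a membrane metalloproteinase, had 1.848 CPM in endothelial-like cells and 281.6 CPM in mural cells, and the integrin gene Itgav had 13.71 CPM in endothelial-like cells and 161.6 CPM in mural cells.

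Between zones, 2 of 25 were higher and 2 lower in arterial-like than in capillary-like cells, beside 5.23% and 3.49% of all genes. In venous-like cells 1 of 23 was higher and 0 lower than in capillary-like cells, beside 3.7% and 3.21% of all genes. Grb7 had 13.53 CPM in arterial-like cells against 49.94 CPM in capillary-like cells, and the kinase gene Pak1 had 42.87 CPM in venous-like cells against 10.64 CPM in capillary-like cells. In smooth muscle-like cells 5 of 23 were higher and 7 lower than in pericyte-like cells, beside 12.9% and 18.1% of all genes. The median log2 ratio there was -0.41 against -0.14 over all genes. Angpt4, another angiopoietin gene, had 23.35 CPM in smooth muscle-like cells against 0.2075 CPM in pericyte-like cells. In fibroblast-like cells 8 of 25 were higher and 2 lower than in pericyte-like cells, beside 20.1% and 16.2% of all genes. The median log2 ratio there was 0.57 against -0.09 over all genes. Svep1, an extracellular matrix protein gene, had 93.02 CPM in fibroblast-like cells against 0.2104 CPM in pericyte-like cells.

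Of 17 further genes of the apelin system, 14 were counted between endothelial-like and mural cells, with 4 at least 2-fold higher and 2 lower. Over all genes, 14.9% were higher and 20.1% lower. The endothelial nitric oxide synthase gene Nos3 had 370.1 CPM in endothelial-like cells against 1.703 CPM in mural cells. The transcription factor gene Mef2c had 156.1 CPM in endothelial-like cells against 447.9 CPM in mural cells. None of the 12 counted reached 2-fold in either direction in arterial-like or venous-like cells over capillary-like cells. Between 3.21% and 5.23% of all genes did so in each direction. Mme, which encodes the apelin-cleaving peptidase neprilysin, had 83.56 CPM in fibroblast-like cells and no read in pericyte-like cells.

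Of 20 tip cell genes, 5 of 16 counted were at least 2-fold higher and 1 lower in arterial-like than in capillary-like cells. In venous-like cells 1 of 14 was higher and 4 lower than in capillary-like cells. Over all genes, 5.23% were higher and 3.49% lower in arterial-like cells, and 3.7% and 3.21% in venous-like cells. Igfbp3 had 64.09 CPM in arterial-like cells against 1.103 CPM in capillary-like cells, and Vegfc had 144.7 against 8.396 CPM. Dll4, a Notch ligand gene, had 88.34 CPM in venous-like cells against 261.6 CPM in capillary-like cells. Adm, which encodes the peptide adrenomedullin, had 17.66 CPM in arterial-like cells against 57.48 CPM in capillary-like cells. Of 12 hypoxia-induced genes counted, 1 was higher and 2 were lower in arterial-like than in capillary-like cells (median log2 ratio -0.25 against 0.00 over all genes), and 0 passed 2-fold in venous-like cells (median 0.03 against -0.02).

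The genes with the most similar pattern were taken over 24 pools of cells, each a class on a plate, by the correlation of log levels. Pools share plates and lines, so these values describe the pools only. Tek was most like Lmo2 (r = 0.988), Palmd (0.983) and Arhgef15 (0.976), Tie1 most like Gbp9 (0.986), Gbp4 (0.980) and Srgn (0.975), and Ptprb most like Slco1a4 (0.994), Eltd1 (0.993) and Egfl7 (0.993). Angpt1 was nearest to Idh2 (0.940), Ptges3l (0.933) and Serpine2 (0.927). Likeness was lower for the patchy genes: Angpt2 with Ctgf (0.812), Apln with Pak1 (0.866) and Aplnr with Tmsb10 (0.853). Among the members themselves Tek and Tie1 had r = 0.974 over the pools, Tek and Angpt1 -0.764, Angpt1 and Angpt2 0.281, and Apln and Aplnr 0.438.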

How the data were processed

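Full-length single-cell libraries were sequenced from sorted brain cells of 3 reporter lines, and each deposited sample is 1 cell. Reads were aligned with STAR 2.4.2a to mm10, per the submitters' processing notes; no counter, annotation or cell filter is named in those notes. The authors deposited a table of raw counts per gene and cell, and a second table of scaled values, treated here as a score, which sums to 499421 to 501418 per cell by a method not stated. All 3186 columns matched a label.

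Counts were summed per class and divided by the summed reads (CPM), with 1 CPM added before a log2 ratio. Cells were clustered with leidenalg 0.10.2 on 2000 variable genes, 30 components and 15 neighbours at resolution 1, leaving out 110 genes (the 7 members, the pathway lists, reporters and erythroid genes). Clusters were named where over 50% of a set's markers were high. A second rule, chosen with results already in view, named them where at least 3 markers were among the 10 leading genes. Only the second rule named the Syt15-led cluster, 292 of the 390 arterial-like cells, with 40% of arterial markers high. At resolution 0.5, a cluster with Syt15 among its leading genes had 90% of them high. At resolution 2 and on a random 50% of the genes, such clusters took no zone name, with capillary as best set. No doublet caller was run, and 356 wells (11.2%) with at least 10% of another class's marker level were left out in 1 alternative, a limit also set after the data were seen. No count model was fitted, since the labels name no animals; a gene counts as higher or lower from 2-fold, with at least 5 CPM on one side. The summing and interval code was tested on simulated data. All 7 members are described; from each list the text names genes among the 2 with the largest ratios up and down, given 20 CPM or more on one side. Members, lists and comparisons were chosen with earlier results of these data known. Some results are not reported here.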

Additional observations from a re-analysis of the deposited data

Results flagged for a closer look

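A rule for a plate far from the other 3 was applied to 30 sets of 4 plate values. Its chance rate of about 1 set in 20 assumes normally distributed values. Some sets rest mainly on reads of 1 cell, so that rate cannot be applied here and no excess over chance can be read. By this rule, 5 sets held such a plate. They were Angpt2 in smooth muscle-like cells on plate Mural3 (256.9 CPM, against 116.7 to 129.9 CPM on the others), Aplnr in smooth muscle-like cells on Mural5 (24.98 CPM, against 0 on the others, and from 1 cell), Angpt1 in the Adamts16-led mural cells on Mural5 (88.23 CPM), Ptprb in the same cells on Mural3 (5.897 CPM), and Apln in arterial-like cells on EC4 (5.293 CPM, with 87.8% of all arterial-like reads in 1 cell).

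High values also appeared in cells that enter none of the 5 comparisons. Apln stood at 107.1 CPM in oligodendrocyte-like cells. The Colec11-led cells had 441.3 CPM of Angpt2 and 129.1 CPM of Angpt1. Of these 45 cells, 44 were flagged as possible mixed wells, though their pericyte markers alone bring the flag. The 10% limit for a class other than pericytes and smooth muscle was reached by 18. The Adamts16-led mural cells had 109.5 CPM of Angpt2.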

How the results depend on the processing

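The counts of members past 2-fold and the co-detection percentages were recomputed in 164 values, of which 152 stayed. A count stayed when it was equal to the main count or within a small fixed ratio of it, and a percentage when it lay within its interval. Of 469 recomputed ratios of single genes, 322 moved by more than their counting interval. A further 6, all of at least 2-fold in the main setting, turned their sign, and sign changes of smaller ratios were not counted apart. The count of members higher in arterial-like than in capillary-like cells ranged from 0 (without plate EC5) to 1, and that of members lower in fibroblast-like than in pericyte-like cells was 2 at resolution 0.5 and 1 to 2 with a plate left out (2 without Pdgfra1 or Pdgfra2). The Apln ratio of venous over capillary-like cells was -0.51 at resolution 0.5 and -0.08 at resolution 2. The Tie1 ratio of fibroblast-like over pericyte-like cells was -2.97 at resolution 2, -2.93 with clustering on a random 50% of the genes and -3.50 without plate Pdgfra1, in a range up to 2.19 with other plates left out. At resolution 2 and with the random 50% of genes, the cells led by Dpep1 and Moxd1 took no name and so left the fibroblast-like class. The Aplnr ratio of smooth muscle-like over pericyte-like cells was -0.01 without plate Mural5, in a range up to 3.31 with other plates left out. Beyond that change of class, causes were not tested.

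The share with Angpt2 among cells without Apln, 11.8% in all, was 9.14% in arterial-like, 8.21% in venous-like and 14.6% in capillary-like cells. It was 9.91% in the lowest and 13.7% in the highest tertile of reads, 7.76% from 5 reads, 7.91% from 10 CPM and 9.25% after thinning. Leaving out each plate gave 26.1 to 34.1% of cells with Apln against 10.9 to 12.7% of cells without it. The Ivns1abp-led cluster alone as the capillary reference, chosen after seeing the data, gave arterial and venous log2 ratios of -3.38 and -2.09 for Angpt2. Venous over capillary-like cells with clustering on a random 50% of the genes was not run, since no venous cluster could be named there. No paired analysis was possible because no test was run and the labels name no animals, and comparisons within plates are given as values only. Precision is limited by the few cells with Apln, 61 in the line.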

Other observations

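The 18 cells with reads of both Apln and Angpt2, 3 to 6 on each plate, were also set against the 1221 cells of the line with neither. The cells with both include a microglia-like well on plate EC5, whose part in the ratios was not tested. Leaving out possible mixed wells left 17 cells with both. With so few cells, 14.9% of all 10349 genes counted were at least 2-fold higher and 28.2% at least 2-fold lower, so these ratios are a description only. Ccnd1, which encodes the cell cycle regulator cyclin D1, had 422.8 CPM in cells with both against 39.76 CPM in cells with neither, and was read in 15 of the 18. Adm, the adrenomedullin gene, had 501.1 CPM in cells with both against 27.51 CPM in cells with neither and was read in 8 of the 18. Stab1, which encodes the scavenger receptor stabilin-1, had 242.3 CPM in cells with both and 57.03 CPM in cells with neither. The arterial gene Gkn3 had 0.7964 CPM in cells with both and 728.3 CPM in cells with neither. Tek had 876.9 CPM in cells with both against 1629 CPM in cells with neither, and Tie1 had 410.6 CPM with both against 809.7 CPM with neither, while Ptprb had 1429 CPM with both and 1501 CPM with neither.

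Of 17 tip cell genes counted, 5 were higher and 2 lower in the cells with both, beside 14.9% and 28.2% of all genes. The median log2 ratio of the 17 was 0.60 against -0.16 over all genes. The tip cell gene Esm1, which encodes endocan, was under the 5 CPM limit and so not counted. It had no read in the cells with both and 0.6595 CPM in the cells with neither, too low a level to compare. Of 12 hypoxia-induced genes counted, 1 was higher and 0 lower, with a median of 0.47. Zones enter these 2 groups in different shares. Within the capillary-like zone, 8 cells with both were set against 615 with neither, where 17.2% of 9969 genes were at least 2-fold higher and 49.0% lower. There, 4 of 14 tip cell genes counted were higher and 4 lower (median 0.45 against -0.91 over all genes), and 2 of 12 hypoxia-induced genes were higher and 3 lower (median -0.16). Ccnd1 had 382.0 CPM in cells with both against 50.47 CPM in cells with neither and was read in 7 of the 8, and Tek had 731.7 CPM in cells with both against 1530 CPM in cells with neither.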
